A study of Mus musculus with 5 samples.

Results

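Calmodulin, the calmodulin-dependent kinases and calcineurin form the core of the calcium response of a neuron, and 9 genes of this system were followed in olfactory sensory neurons after odorant exposure. They were *Calm2* and *Calm3* (calmodulin), *Camk2a*, *Camk2b*, *Camk2d* and *Camk2g* (the subunits of CaM kinase II), *Camk4* (CaM kinase IV), *Ppp3ca* (a catalytic subunit of calcineurin) and *Rcan1* (a regulator of calcineurin). They were taken by symbol from the 55411 genes of the count tables, and all 9 were found.

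The neurons expressed the odorant receptor gene *Olfr151* and were sorted by their GFP fluorescence from the main olfactory epithelium of male mice, 7 weeks old, homozygous for the *Olfr151* tm26Mom allele, in which an IRES-tau-GFP cassette follows the receptor coding sequence. Mice were exposed for 5 h either to 5% acetophenone in DMSO, an odorant that activates this receptor, or to DMSO alone. Control and exposed mice carried the same allele, so no wild-type neurons were compared. The RNA of the sorted cells was amplified and sequenced (FACS-seq). Each library was 1 pool of 4 mice, which left 3 control pools (1, 2 and 3) and 2 exposed pools (1 and 3). Exposed pool 2 was not analysed here. The labels give 200 sorted cells per pool in one field and 400 in another. The methods of the paper give 200 for pools of *Olfr151* mice and 400 for pools of *Olfr16* mice.

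In olfactory sensory neurons, odorant binding opens cyclic nucleotide-gated channels and calcium enters the cilia. Calmodulin binds this calcium, feeds back on the channels, and activates both the CaM kinases, which phosphorylate channels, cyclases and transcription factors, and the phosphatase calcineurin. Calcineurin is a dimer of a catalytic A subunit and a calcium-binding B subunit. It dephosphorylates NFAT transcription factors so that they enter the nucleus, and RCAN proteins bind it and limit its activity.

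*Calm2* and *Calm3* are shown first because they encode 1 protein with different bases, which is what allows short reads to be assigned to each gene. The first 60 of the 450 coding bases are printed from GRCm38 (GENCODE M21), with the positions at which the 2 genes differ in capitals. They lie between 87435909 and 87446795 on the minus strand of chromosome 17 for *Calm2*, and between 16917703 and 16923843 on the minus strand of chromosome 7 for *Calm3*, in each case with an intron in between.
Calm2: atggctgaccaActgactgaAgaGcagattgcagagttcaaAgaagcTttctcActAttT
Calm3: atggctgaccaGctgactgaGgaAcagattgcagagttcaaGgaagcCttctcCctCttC
In this stretch 8 of the 60 positions differed, and in the whole coding sequence 78 of 450 did, which is an identity of 82.7%, while 0 of the 149 codons encoded another residue. No run of 50 bases, the read length, was common to both coding sequences.

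The second sequence concerns *Rcan1*, which had the largest fold change of the 9 genes. *Rcan1* has start sites 66091 bases apart on the minus strand of chromosome 16, one at the upstream end of the gene and one inside it, and the latter is known as the start of the short, calcium-inducible isoform. The stretch from -250 to -151 before the intragenic start (GRCm38.p6, RefSeq, chr16:92400229-92400328, minus strand) is printed with TGACGTCA, the cyclic AMP response element, and GGAAA, the core of NFAT sites, on either strand in capitals.
Rcan1 intragenic promoter: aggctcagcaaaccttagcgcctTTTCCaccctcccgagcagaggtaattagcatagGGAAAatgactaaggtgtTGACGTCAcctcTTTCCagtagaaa
Over the window from 250 bases before to 50 bases after this start, TGACGTCA occurred once, with its first base at -175, and GGAAA occurred 3 times, and the motifs did not overlap. The same window at the upstream start held neither. TGACGTCA occurs in 1.79% of 32851 promoter windows of this length and GGAAA in 61.3%. The counts are summed over all exons of a gene and do not separate the isoforms, and a match of letters is not a binding site. Windows were found for 4 of the 9 genes, and among the other 3, *Camk2d* and *Calm3* each held 1 GGAAA and *Camk2b* none.

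Library totals ranged from 42780403 to 49527380 counts, and ERCC spike-ins took 0.249 to 0.631% of them. All 8 markers of mature olfactory neurons passed the count threshold. Their summed level was 56843 to 60431 CPM (counts scaled to library size by TMM) in the control pools and 48474 to 49410 in the exposed pools. Of the 8, *Cnga2*, *Cnga4* and *Rtp1* were called lower by the test described further on, against 1.85% of all tested genes. *Omp* was lower without overlap and was not called. *Adcy3*, *Gnal*, *Gng13* and *Stoml3* overlapped between conditions. The mean of *Stoml3*, the most abundant, was 17032 CPM in the control and 18109 in the exposed pools. The 4 immature neuron markers summed to 194 to 199 CPM in the control and 261 to 301 in the exposed pools. *Gap43* made up most of this difference in the sum. *Gng8* had 9.96, 6.55 and 16.7 CPM in the control and 23.4 and 25.1 in the exposed pools. *Tex15* had 1, 2 and 0 counts against 55 and 73. *Hdac9* overlapped, at 79.3, 108 and 79.4 against 58.1 and 83.3 CPM. Sustentacular markers were at 103 to 331 CPM, and basal cell markers at 0.0464 to 1.77 CPM. The 10 myeloid markers summed to 371, 32.8 and 21.1 CPM in control pools 1, 2 and 3 and to 420 and 70.9 in exposed pools 1 and 3. In a pool, 0 to 5 of the 10 were at 3 counts or fewer. Of the 10, 5 were tested and 1, *Fcer1g*, was called higher, against 3.41% of all tested genes. *Cd74* made up most of the sum in control pool 1 and exposed pool 1 (227 and 274 CPM). Individual myeloid markers separated the conditions: *Fcer1g* had 5.52, 2.16 and 1.59 CPM in the control and 18.0 and 20.3 in the exposed pools, *Tyrobp* 12.3, 2.48 and 1.44 against 23.8 and 19.0, and *Ptprc*, the common leukocyte antigen, 0, 1.09 and 0.0215 against 12.6 and 12.3. *Fcer1g*, *Tyrobp* and *Ptprc* reached the count threshold through the exposed pools only, which favours a lack of overlap. The other myeloid markers overlapped between conditions. Of these, *C1qb* and *C1qc* had a lower mean in the exposed pools, and *C1qa*, *Csf1r*, *Lyz2*, *Cd68* and *Cd74* a higher one. *C1qb* had 13.8, 1.53 and 0 CPM in the control and 1.65 and 0.453 in the exposed pools, and *Lyz2* 62.5, 10.7 and 11.5 against 57.4 and 10.1. The 4 globin genes were at 341, 106 and 12.4 CPM in the control pools and at 15.3 and 6.36 in the exposed pools. In pooled bulk RNA, fewer cells of a type and less RNA per cell cannot be told apart.

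In the control pools the 9 genes spanned about 4 orders of magnitude in TPM, a unit scaled to library size and to exon length. *Calm2* stood at 8927 ± 875 TPM (SD, n = 3), and over all 5 libraries it had rank 9 by mean TPM among the tested genes. *Calm3* stood at 419 ± 70.5 TPM. *Camk2d* was the main CaM kinase II gene with 155 ± 32.2 TPM. *Rcan1* with 48.8 ± 1.50 and *Ppp3ca* with 42.4 ± 15.4 followed, and the ranges of these neighbours overlapped. *Camk4* with 6.02 ± 3.42, *Camk2a* with 3.39 ± 0.403, *Camk2g* with 1.78 ± 0.553 and *Camk2b* with 0.837 ± 0.654 TPM were the lowest, with overlap between the last pair only. After exposure *Rcan1*, at 284 and 195 TPM, stood above *Camk2d*, at 116 and 174, and *Ppp3ca*, at 9.47 and 10.2, lay below all of its control values.

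**Figure D1:**
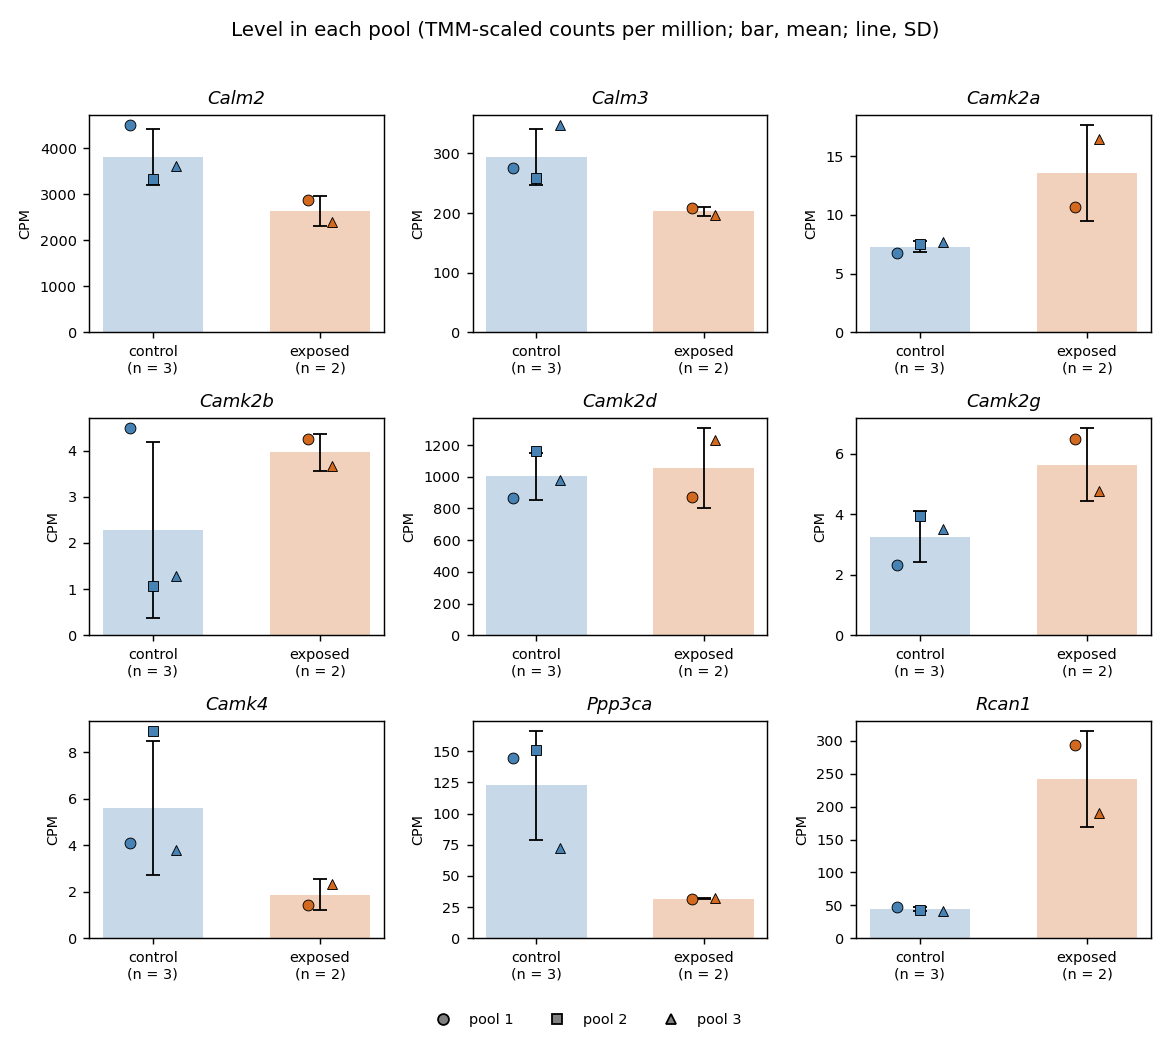
Level of each of the 9 genes in every pool in TMM-scaled CPM on linear axes that start at 0. Bars give the mean of 3 control or 2 exposed pools, black lines the SD and points the pools. The exposed pools of *Rcan1* sit at 294 and 190 CPM against 41.7 to 47.2 in the control pools, and those of *Ppp3ca* sit at 31.6 and 32.0 CPM against 72.4 to 151.

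Whether 5 h of odorant exposure changed the transcripts of this system was tested gene by gene with edgeR's quasi-likelihood test over the 10035 genes that reached 142 counts in every library of a condition, and a gene was called at a Benjamini-Hochberg adjusted p under 0.1 if its log2 fold change was also over 0.5 in size. *Rcan1* rose and *Ppp3ca* fell, and the other 7 genes were not called. This is 1 of 9 called higher, against 3.41% of all tested genes, and 1 of 9 called lower, against 1.85%. The 3 control and 2 exposed pools did not overlap in CPM for 7 of the 9 genes, compared with 40.0% of all tested genes. Of these 7, *Rcan1*, *Camk2a* and *Camk2g* were higher and *Calm2*, *Calm3*, *Camk4* and *Ppp3ca* lower in the exposed pools. The median log2 fold change was 0.07 over the 9 genes and -0.03 over all tested genes. *Camk2b* and *Camk2g* reached the threshold through the exposed pools only, and *Camk4* through the control pools only. *Camk2g* and *Camk4* thus entered through the group in which they were higher, which favours a lack of overlap, and both are among the 7.

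*Rcan1*, the calcineurin regulator (ENSMUSG00000022951, GRCm38 chromosome 16, 92391953 to 92470867, minus strand), had 2060, 2092 and 1935 counts in control pools 1, 2 and 3, or 47.2, 42.2 and 41.7 CPM. It had 12644 and 7971 counts, or 294 and 190 CPM, in exposed pools 1 and 3. The control pools were close to each other, and the lower exposed pool was far above all of them. The mean level rose 5.54-fold, from 43.7 ± 3.03 (SD, n = 3) to 242 ± 73.3 CPM (n = 2), with a log2 fold change of 2.47 ± 0.22 (SE) and an adjusted p of 0.00399 in edgeR's quasi-likelihood test. It ranked 26 by p and 130 by fold change from the top among all tested genes. The call remained when any 1 of the 5 pools was left out, with log2 fold changes from 2.11 without exposed pool 1 to 2.72 without exposed pool 3. It was lost with scaling to the spike-ins, where the log2 fold change was 2.20 and the adjusted p in edgeR was 0.150. A replicate block on pool number also ended the call, with a log2 fold change of 2.41 and an adjusted p of 0.126 in edgeR. *Ptprc*, *Fcer1g* and *Tyrobp* were higher in the exposed pools, whereas the other myeloid markers overlapped. For pool number 1 the myeloid marker sum was similar, at 371 CPM without odorant and 420 CPM with it. For pool number 3 it was higher with odorant, at 70.9 CPM against 21.1 CPM. The part of myeloid cells in the *Rcan1* result was not tested. None of the exon bases of *Rcan1* are shared with another annotated gene.

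*Ppp3ca*, which encodes the alpha isoform of the catalytic subunit of calcineurin (ENSMUSG00000028161, chromosome 3, 136670124 to 136937727, plus strand), moved in the opposite direction. It had 6329, 7472 and 3360 counts in the control pools, or 145, 151 and 72.4 CPM, and 1363 and 1344 counts, or 31.6 and 32.0 CPM, in the exposed pools. Control pool 3 lay between the other controls and the exposed pools, and the exposed pools differed little from each other. The mean was 3.85-fold lower, 123 ± 43.6 (SD, n = 3) against 31.8 ± 0.270 CPM (n = 2), with a log2 fold change of -1.95 ± 0.35 and an adjusted p of 0.041 in edgeR's quasi-likelihood test. The call was lost in several alternatives, among them a replicate block on pool number (adjusted p 0.242 in edgeR). The adjusted p in edgeR was 0.126 without control pool 2, 0.291 without exposed pool 1, 0.182 without exposed pool 3, 0.286 with spike-in scaling and 0.119 with edgeR's own filter on low counts, while the log2 fold change stayed between -2.19 and -1.69 in all 15 alternatives. The summed mature neuron markers were at 56843 to 60431 CPM in the control and 48474 to 49410 in the exposed pools. Among them, *Adcy3*, *Gnal*, *Gng13* and *Stoml3* overlapped between conditions. The part of this lower sum in the *Ppp3ca* result was not tested.

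The other calcineurin genes came from a list of 39 pathway genes, of which 21 were tested, with 2 called higher (3.41% of all tested genes were), 1 called lower (1.85%) and a median log2 fold change of 0.15 (-0.03 over all tested genes). Among its 9 calcineurin subunits and regulators 6 were tested, and 1 was called. *Ppp3r1*, the B subunit that binds calcium, fell from 100, 119 and 138 CPM in control pools 1, 2 and 3 to 64.8 and 66.4 in the exposed pools, with a log2 fold change of -0.86 ± 0.21 and an adjusted p of 0.0906 in edgeR, which was above 0.1 when control pool 2, control pool 3, exposed pool 1 or exposed pool 3 was left out (0.204, 0.174, 0.401 and 0.237). The other catalytic subunits were not called. *Ppp3cb* had 57.8, 60.1 and 45.2 CPM in the control and 31.9 and 42.5 in the exposed pools. *Ppp3cc* had 97.3, 94.9 and 57.3 CPM against 27.2 and 51.9, with a log2 fold change of -1.07 ± 0.37 and an adjusted p of 0.190 in edgeR. All 4 detected subunit genes of calcineurin had their exposed pools below their control pools, as did 19.6% of all tested genes, and 2 of the 4 were called lower, against 1.85% of all tested genes. The sum of mature neuron markers was lower in the exposed pools too, although not every marker was. Its part in these values was not tested. *Ppp3r2*, the B subunit of the testis, had no counts in any library.

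Among the tested calcineurin regulators, *Rcan1* was the only one called. *Rcan3*, a paralog, had 15.5, 47.2 and 44.6 CPM in the control and 33.7 and 59.3 CPM in the exposed pools, which overlapped. *Rcan2*, another paralog, had 137, 154 and 60 counts in the control and 0 and 14 counts in the exposed pools, and its counts were too low to be tested. *Chp1*, a calcineurin B homologous protein that inhibits calcineurin, stood at 38.1 to 50.5 CPM in the control pools and at 77.7 and 81.0 in the exposed pools, with an adjusted p of 0.110 in edgeR. *Cabin1*, another inhibitor of calcineurin, stood at 36.5 to 55.4 against 76.1 and 74.1 CPM (adjusted p 0.173). Neither pair of groups overlapped, and neither gene was called. The difference between *Rcan1* and the other regulators was not tested.

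**Figure D2:**
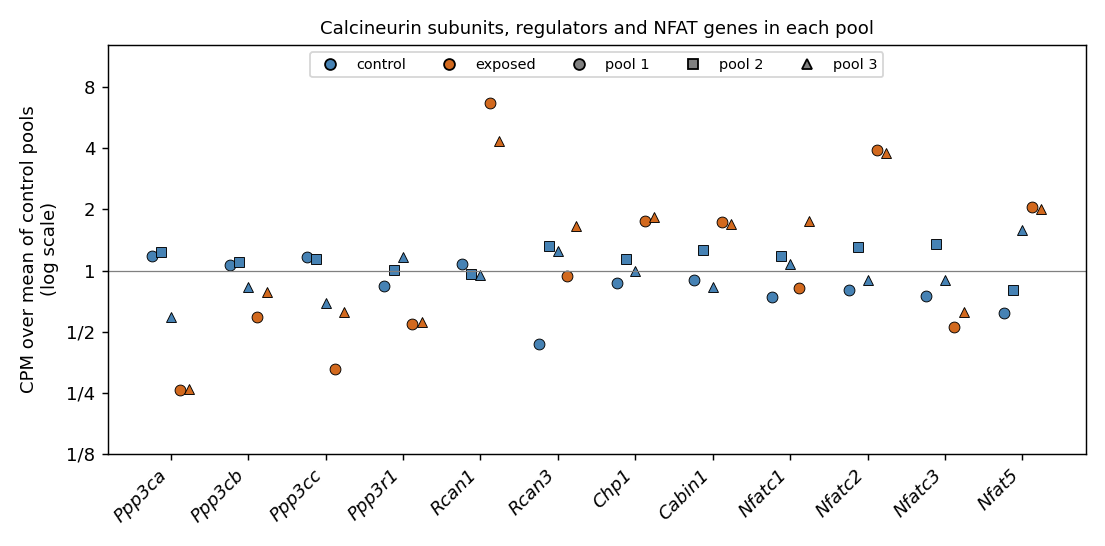
CPM of calcineurin subunits, calcineurin regulators and NFAT genes in each pool, divided by the mean of the 3 control pools of that gene, on a log axis. Blue points are control and orange points exposed pools, and the symbol gives the pool number. The exposed pools lie below all control pools for *Ppp3ca*, *Ppp3cb*, *Ppp3cc*, *Ppp3r1* and *Nfatc3*, and above them for *Rcan1*, *Chp1*, *Cabin1*, *Nfatc2* and *Nfat5*.

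Set side by side, the regulator and its target changed order in level. Summed over *Ppp3ca*, *Ppp3cb* and *Ppp3cc*, the catalytic subunits stood at 174, 196 and 110 TPM in control pools 1, 2 and 3 and at 47.5 and 80.5 TPM in exposed pools 1 and 3. *Rcan1* TPM over this sum was 0.285, 0.255 and 0.428 in the control and 5.98 and 2.42 in the exposed pools. Transcripts of *Rcan1* were fewer than those of the catalytic subunits in every control pool and more numerous in both exposed pools. The sum and the ratio were chosen after the values were seen. A two-sided exact permutation test of the sum gave p = 0.2, where 0.1 is the smallest possible, and the ratio was not tested. Within the sum, the share of *Ppp3ca* was 26.0 ± 2.71% (SD, n = 3) in the control and 16.3 ± 5.17% (n = 2) in the exposed pools, that of *Ppp3cb* 13.7 ± 2.19% and 20.9 ± 2.68%, and that of *Ppp3cc*, the most abundant, 60.2 ± 0.897% and 62.8 ± 7.85%.

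Of the 10 calcium-regulated transcription factors in the pathway list, 8 were tested, with 1 called higher (3.41% of all tested genes were). The conditions did not overlap for 4 of the 8, compared with 40.0% of all tested genes. *Nfatc2*, an NFAT factor that calcineurin activates, rose from 24.7, 39.9 and 27.6 CPM in control pools 1, 2 and 3 to 121 and 117 in exposed pools 1 and 3, with a log2 fold change of 1.95 ± 0.26 and an adjusted p of 0.0144 in edgeR's quasi-likelihood test. The exposed pools were nearly equal and about 3 times the highest control. The call was lost without exposed pool 1 (adjusted p 0.139 in edgeR), without exposed pool 3 (0.101) and with spike-in scaling (0.585). A replicate block on pool number also ended the call (adjusted p 0.134 in edgeR). *Ptprc*, *Fcer1g* and *Tyrobp*, which leukocytes express, were higher in the exposed pools, whereas the other myeloid markers overlapped. *Ptprc* was at 0 to 1.09 CPM in the control and at 12.6 and 12.3 in the exposed pools. The part of leukocytes in the *Nfatc2* result was not tested. The other 3 NFAT genes that were tested did not pass. *Nfat5* stood at 27.2 to 69.8 CPM in the control and at 90.5 and 88.3 in the exposed pools, *Nfatc3* at 107 to 194 against 75.2 and 89.0, and *Nfatc1*, the most abundant of them in CPM, at 290 to 463 against 319 and 688. *Mef2a* and *Mef2d*, which calcium also regulates, and the calmodulin-binding factors *Camta1* and *Camta2* had log2 fold changes between -0.33 and 0.15 and were not called.

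**Figure D3:**
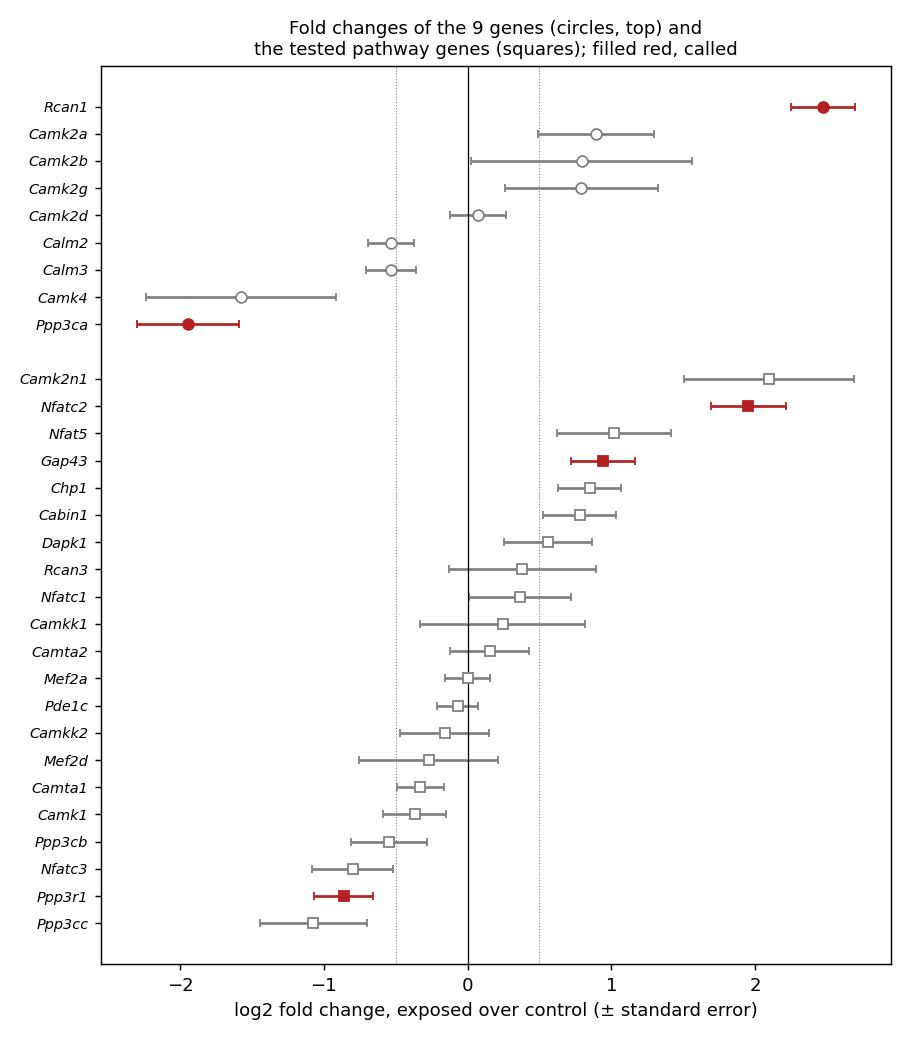
Log2 fold change of exposed over control pools from edgeR, with standard errors, for the 9 genes (circles) and the 21 tested pathway genes (squares). Filled red symbols mark called genes and dotted lines the log2 fold change of 0.5. *Rcan1* at 2.47 and *Ppp3ca* at -1.95 are the extremes of the 9 genes, and *Camk2n1* at 2.10 and *Ppp3cc* at -1.07 those of the pathway genes.

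*Calm2* (ENSMUSG00000036438, chromosome 17, 87433412 to 87446935, minus strand) had 196504, 165059 and 167918 counts in the control pools, or 4499, 3328 and 3616 CPM, and 123604 and 100763 counts, or 2869 and 2401 CPM, in the exposed pools. *Calm3* (ENSMUSG00000019370, chromosome 7, 16915379 to 16924114, minus strand) had 275, 259 and 347 CPM in the control and 208 and 197 CPM in the exposed pools. The exposed pools of both genes lay below all control pools. The log2 fold changes were nearly the same, -0.53 ± 0.16 for *Calm2* and -0.54 ± 0.17 for *Calm3*, and neither was called by edgeR (adjusted p of 0.152 and 0.171). The Wald test of DESeq2 called both lower, with adjusted p of 0.0625 and 0.0714. Of the 50-base stretches of *Calm2* transcripts 9.72% also occur in transcripts of 3 other genes, and those of *Calm3* 2.52% in 1 other gene. Reads that map to several places were not counted, in all libraries alike.

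Genes of calmodulin-binding proteins were also in the list. *Gap43*, a growth-cone protein of immature neurons that sequesters calmodulin, rose from 106, 79.4 and 103 CPM to 218 and 151 CPM, with a log2 fold change of 0.94 ± 0.22 and an adjusted p of 0.0891 in edgeR, which was above 0.1 without any 1 of the 5 pools (0.107 to 0.505). It is also one of the 4 immature neuron markers. Without it the others summed to 89.3, 115 and 96.2 CPM in the control and 82.8 and 110 CPM in the exposed pools, which overlapped. *Hdac9* made up most of that sum and overlapped, while *Gng8* and *Tex15* were higher in both exposed pools without overlap. *Gng8* was not called and *Tex15* had too few counts to be tested. The part of immature neurons in the *Gap43* result was not tested. *Pcp4* and *Nrgn*, the other calmodulin-sequestering genes, had at most 9 and 70 counts in a library and were not tested. *Pde1c*, a calmodulin-activated phosphodiesterase of olfactory cilia, was abundant and not called, at 1596 to 2070 CPM in the control and 1665 and 1814 CPM in the exposed pools.

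*Camk2d*, the delta subunit of CaM kinase II (ENSMUSG00000053819, chromosome 3, 126596302 to 126846326, plus strand), stood at 865, 1163 and 980 CPM in the control pools and at 876 and 1233 in the exposed pools. The ranges overlapped almost fully, and the log2 fold change was 0.07 ± 0.19 (adjusted p 0.876 in edgeR). *Camk2a*, the alpha subunit, which predominates in forebrain neurons, had only 295, 372 and 356 counts in the control and 460 and 690 in the exposed pools, or 6.75 to 7.67 against 10.7 and 16.4 CPM. Its groups did not overlap, with a log2 fold change of 0.89 ± 0.40, and it was not called (adjusted p 0.291). *Camk2g*, the gamma subunit, had 101, 196 and 163 counts against 280 and 201, with a log2 fold change of 0.79 ± 0.53 (adjusted p 0.465). *Camk2b*, the beta subunit, had 196, 53 and 60 counts against 183 and 154, so control pool 1 was the highest of all libraries, and its log2 fold change of 0.79 ± 0.77 had the largest standard error of the 9 genes (adjusted p 0.626).

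The 4 subunit genes summed to 161 ± 32.5 TPM (SD, n = 3) in the control and 155 ± 42.0 TPM (n = 2) in the exposed pools, with a log2 ratio of -0.06 and a two-sided exact permutation p of 0.8, and the log2 ratio was 0.085 in CPM. *Camk2d* held 95.6 to 96.7% of this sum in the control and 93.0 and 94.2% in the exposed pools. *Camk2a* held 1.88 to 2.27% against 3.42 and 3.79%, *Camk2g* 0.898 to 1.21% against 2.43 and 1.29%, and *Camk2b* 0.219 to 1.22% against 1.11 and 0.691%. Shares within a family add up to the whole and are not independent. Over the 7 shares of the CaM kinase II and calcineurin families, 5 reached the exact permutation p of 0.1 that is the smallest possible in this design, and the Benjamini-Hochberg adjusted p of these 5 was 0.14 in the exact permutation test. The remaining shares were those of *Camk2b* (exact p 0.6) and *Ppp3cc* (exact p 0.7).

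**Figure D4:**
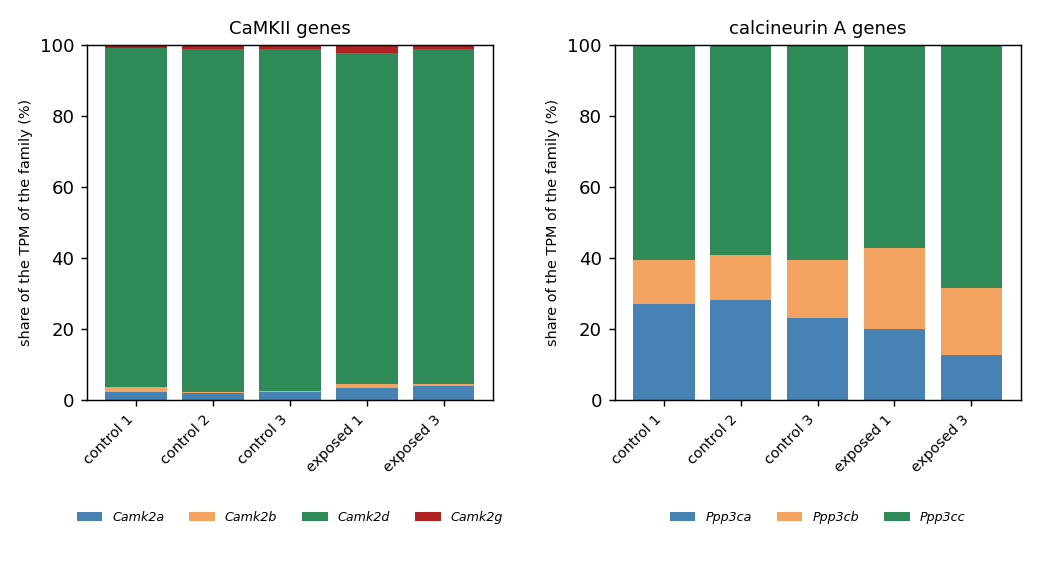
Share of each gene in the TPM of its family in every library, for the CaM kinase II genes and the catalytic calcineurin genes, in percent on an axis from 0 to 100. Stacked colours are genes. The *Ppp3ca* share is 23.0 to 28.1% in the control and 19.9 and 12.6% in the exposed libraries, and *Camk2d* makes up 93.0 to 96.7% of the CaM kinase II total in every library.

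*Camk2n1*, an inhibitor protein of CaM kinase II, reached the count threshold through the exposed pools only and was not called. It had 50, 160 and 134 counts in the control and 493 and 389 counts in the exposed pools, or 1.15, 3.23 and 2.89 against 11.4 and 9.27 CPM. The exposed pools were at least 2 times the highest control in counts, with a log2 fold change of 2.10 ± 0.59 and an adjusted p of 0.128 in edgeR. *Camk2n2*, the second inhibitor, had 597, 692 and 127 counts against 139 and 238, and was not tested because control pool 3 and exposed pool 1 were below the threshold.

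*Camk4*, a nuclear kinase that phosphorylates CREB, had 178, 442 and 176 counts in the control and 61 and 98 counts in the exposed pools, or 4.07, 8.91 and 3.79 against 1.42 and 2.34 CPM. Control pool 2 was more than 2 times the other controls, and both exposed pools were below all of them. The log2 fold change was -1.58 ± 0.66, and the gene was not called (adjusted p 0.260 in edgeR). *Camk4* shares 72 exon bases, 2.21% of its exons, with the antisense gene *2310026I22Rik*, and the counting did not use strand, so reads of those bases cannot be told apart. Its upstream kinases overlapped between conditions. *Camkk1* stood at 6.37 to 18.7 CPM against 19.5 and 8.74, with exposed pool 3 within the control range, and *Camkk2* at 20.3 to 31.8 against 22.8 and 23.9 CPM. *Camk1*, a further kinase of this cascade, stood at 129 to 183 against 137 and 104 CPM.

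For *Calm2* and *Rcan1*, the most abundant and the most changed of the 9 genes, the tested genes with the most similar pattern were found as those with the smallest root mean square difference in log2 CPM, each gene centred on its own mean over the 5 libraries. For *Calm2* these were *Bad* (0.0291), *Pde6d* (0.0386) and *Clns1a* (0.0470), all lower in both exposed pools, with log2 fold changes of -0.56, -0.55 and -0.45 and none called. For *Rcan1* they were *Myo1d* (0.151), *Nppc* (0.211) and *Cbwd1* (0.235), with log2 fold changes of 2.25, 2.30 and 2.11, all called. *Myo1d*, an unconventional myosin, had 32.1, 23.4 and 23.1 CPM in the control and 145 and 103 CPM in the exposed pools, and *Nppc*, the C-type natriuretic peptide, 5.98, 3.97 and 5.94 against 31.6 and 20.5 CPM. As in *Rcan1*, exposed pool 1 was the higher one in each of the 3. With 10035 genes and 5 libraries that share their depth and make-up, close matches are easy to find, and the likeness is a description.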

How the data were processed

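For 5 FACS-seq libraries of *Olfr151* neurons, the deposited count tables were analysed. The authors mapped single reads of 50 bases with STAR 2.7.0a to GRCm38 with the IRES-tau-GFP sequence added, and used featureCounts 1.6.3 to count exonic reads by gene, without strand and without multi-mapping reads. Gene models were those of Ensembl release 99 with updated odorant receptor genes. The deposited counts are whole numbers without normalization, with the exon length of each gene. The cDNA had been amplified in 12 PCR cycles without molecular identifiers, so duplicate reads cannot be separated and counts carry more error than counting alone. Totals of 42780403 to 49527380 counts place 3 counts at 0.0606 to 0.0701 CPM.

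Each library was placed in its condition by its label. Symbols were matched for 55144 of 55411 genes, and 92 spike-ins were used only as an alternative scaling. Counts were tested in R 4.3.3 with edgeR 4.0.16 (TMM, glmQLFit with robust estimation, glmQLFTest), with condition as the only factor. A gene was tested if all libraries of a condition had 142 counts or more, the value at which the distribution of log2 counts had its local minimum. Adjusted p-values are Benjamini-Hochberg values over 10035 genes. CPM values are scaled by TMM, and TPM values were computed from counts and exon lengths. Standard errors are the log2 fold change divided by the root of the F statistic. Sums and shares were compared by exact permutation over the 10 assignments of libraries, in Python 3.11.15. The procedure was tested on simulated counts. Pools hold different mice, so p-values measure the spread between pools, with 1 difference behind the spread of the exposed condition.

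The 9 genes, the pathway list and the marker lists were chosen with earlier results of these data known. The genes named are the 9, the called pathway genes and their partners, and for *Calm2* and *Rcan1* the 3 most similar genes. *Chp1*, *Cabin1*, *Pde1c*, *Camk1* and the remaining NFAT, MEF2 and CAMTA genes of the list were named after their values were seen. Alternatives were DESeq2 1.42.0, other scalings, filters and thresholds, glmTreat, a replicate block (pool number) and the omission of single libraries. Exposed pool 2 was not used here, and 1 gene of the pathway list is not reported here, nor are the sums and shares that need it.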

Additional observations from a re-analysis of the deposited data

How the results depend on the processing

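The log2 fold changes of *Rcan1*, *Ppp3ca*, *Nfatc2*, *Ppp3r1* and *Gap43* kept their direction in all 15 alternatives, and the calls remained in 13, 9, 11, 5 and 5 of them. The direction could not change under another threshold, glmTreat or estimation that is not robust, where the log2 fold changes equal the reported ones. Dropping the fold threshold could not end a call. Of 319 recomputed values, 229 were kept. A count was kept within 1.5 times the reported one, and a fold change if its direction and call stayed. Sums and shares were kept if their direction stayed, whatever their size. For example, the log2 ratio of summed CaM kinase II was -0.37 without exposed pool 3, against -0.06 as reported. Of the rest, 49 counts moved by over 1.5 times, 32 calls were lost, 2 were gained and 7 values changed sign. The counts given here are called higher and lower, first for the 9 genes (1 and 1 as reported), then for the 21 tested pathway genes (2 and 1) and then for all genes (342 and 186). DESeq2's Wald test gave 1 and 3, 5 and 3, and 725 and 768. Spike-in scaling, which moved the median over all genes on the log2 scale from -0.03 to -0.23, gave 0 and 0, 0 and 0, and 93 and 48. The filterByExpr filter gave 1 and 0, 1 and 0, and 162 and 74, and no count filter left 0 pathway genes called lower. An adjusted p under 0.05 gave 1 and 0 pathway genes and 190 and 91 of all genes, and glmTreat 1 and 0, and 146 and 55. With a replicate block the counts were 0 and 0, 0 and 0, and 11 and 1, and *Rcan1* had a log2 fold change of 2.41 with an adjusted p of 0.126 in edgeR. Taken across all tested genes, same-numbered pools did not deviate together (r of 0.03 for pool 1 and -0.07 for pool 3). With 2 exposed pools their deviations from the mean mirror each other, so the 2 values of r are not separate. Some values did go together by pool number. *Cd74* was at 227 and 274 CPM in control and exposed pool 1 and at 4.76 and 4.67 in pool 3. Spike-ins took 0.631 and 0.542% in pool 1 and 0.332 and 0.306% in pool 3. By the labels, control and exposed animals were processed together on consecutive days, but no pool number is tied to a day, so the pool number was used as a block only in this alternative. The block also ended the calls of *Ppp3ca* (adjusted p 0.242 in edgeR) and *Nfatc2* (0.134). With each library left out in turn, 0 to 1 of the 9 genes, 0 to 1 pathway genes and 19 to 436 of all genes were called lower, and 0 to 2 pathway genes and 93 to 353 of all genes higher. Where only 1 exposed library was left, it was assumed to vary like the controls. The extremes were 19 lower without exposed pool 1 and 436 lower without control pool 3.

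Values near 0 changed sign. With spike-in scaling the log2 fold change was -0.13 for *Camk2d*, and the log2 ratio of summed CaM kinase II in CPM was 0.085. With libraries left out, these ranged from -0.22 to 0.29 for *Camk2d* and from -0.37 to 0.20 for summed CaM kinase II, and the *Ppp3cc* share differed by -2.95 to 8.16 percentage points. For the losses of calls, the cause was not tested. *Camk2a*, *Camk2b*, *Camk2g* and *Camk4* had 53 to 690 counts per library.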
